A study of Mus musculus with 6 samples.

Results

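The antioxidant and NRF2 pathway genes considered here were 35 listed genes, found by their names among the 34709 genes of the deposited expression table. All 35 were present, each on 1 row. They were measured by RNA sequencing in articular cartilage of KO and wildtype mice, with 3 libraries labelled for each group. By the methods of the study, the mice were 18-month-old males on a C57BL/6J background and KO and wildtype animals were littermates. The KO line was purchased, and nothing in the methods restricts the deletion to cartilage. The labels name no treatment.

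NRF2 (encoded by Nfe2l2) is a transcription factor that KEAP1 holds in the cytoplasm and directs to degradation. When cysteines of KEAP1 are modified by oxidants or electrophiles, NRF2 accumulates and binds antioxidant response elements at genes for glutathione synthesis, quinone reduction, heme breakdown and thiol repair. Glutathione, thioredoxin and peroxiredoxin enzymes then use the reducing power of NADPH to remove peroxides. In cartilage, this defense has been studied because chondrocytes are exposed to oxidants in ageing and osteoarthritis.

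The core of the antioxidant response element was searched in the promoters of the members, since it is the sequence through which NRF2 acts. The letters TGACNNNGC were looked for on both strands in RefSeq windows (build GRCm38.p6) from 250 bases before to 50 bases after each start site. The element overlaps that of AP-1, whose letters TGANTCA it can contain. Of the 35 members, 29 had a window, and Gclc, Gsr, Gsta4, Hmox1, Prdx6 and Sod3 had none. The letters were found in 8 of the 29 members (27.6%), against 13.99% of the 27025 genes with a window. By window, the share was 8 of 41 (19.5%) against 12.4% of 32851. Of the 8, Srxn1 had them 29 bases after its start site. The other 7 had them upstream, and these stretches are shown because they include both directions of difference described below, in the coding direction of each gene with the element in capitals.
Gclm, at chr3:122245397-122245457 on the plus strand: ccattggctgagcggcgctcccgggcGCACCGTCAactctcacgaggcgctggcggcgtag
G6pdx, at chrX:74428903-74428963 on the minus strand: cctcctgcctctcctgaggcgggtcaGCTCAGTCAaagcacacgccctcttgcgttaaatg
Mgst1, at chr6:138140445-138140505 on the plus strand: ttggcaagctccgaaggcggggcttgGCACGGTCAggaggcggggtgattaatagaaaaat
Txnrd1, at chr10:82859088-82859148 on the plus strand: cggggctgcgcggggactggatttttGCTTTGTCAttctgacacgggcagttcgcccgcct
Prdx1, at chr4:116685440-116685500 on the plus strand: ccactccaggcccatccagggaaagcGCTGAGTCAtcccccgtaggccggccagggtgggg
Sod1, at chr16:90220680-90220740 on the plus strand: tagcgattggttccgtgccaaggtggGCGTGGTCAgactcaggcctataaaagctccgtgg
Nfe2l2, at chr2:75704869-75704913 on the minus strand: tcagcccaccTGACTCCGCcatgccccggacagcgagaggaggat
In 6 of these 7 the element reads in the reverse direction, from GC to GTCA. It stood 240 bases upstream of the start site in Nfe2l2, 134 in Gclm, 133 in Prdx1, 92 in Txnrd1, 57 in G6pdx and 56 in Mgst1 and Sod1. The stretches of Txnrd1, Mgst1 and G6pdx were upstream of a RefSeq start site but inside the bounds that the deposited expression table gives these genes. A match is a description of letters and not of binding.

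Levels are given as FPKM, the fragments assigned to a gene per kilobase of transcript, scaled to all fragments of the library, and total counts ranged from 52268311 to 63331135 per library. KO replicates 2 and 3 nearly coincided. The median squared difference of their scaled counts, relative to that of Poisson sampling, was 5.74, against 23.0 to 81.7 for the other 14 pairs of libraries, and 1.44 with all counts divided by 4. They were therefore averaged and counted as 1 sample, which left 2 KO and 3 wildtype samples. On the first principal component of all tested genes (45.9% of the variance), the wildtype libraries stood from -26.2 to -23.9 and KO replicates 2 and 3 at 50.7 and 49.6. The score of KO replicate 1 was -24.6, which placed it with the wildtype libraries, and results are given with and without it where it decides them. Fits without KO replicate 1 keep the merged pair as the only KO sample, so they hold no spread between KO samples. Nothing in the labels says that the libraries came from separate mice, so p-values measure only the spread between these samples.

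The tissue label was checked against cell markers. Col2a1, the collagen of cartilage, stood at 16.0, 12.4 and 12.6 FPKM in KO replicates 1, 2 and 3 and at 21.3, 20.3 and 13.9 FPKM in wildtype replicates 1, 2 and 3, whereas the neutrophil gene S100a9 was at 11637 to 27817 FPKM over the 6 libraries and the globin gene Hbb-bs at 9546 to 45387 FPKM. No list had a marker at 0 in every library. The summed level of 13 neutrophil markers was 52625 to 63880 FPKM in KO and 27681 to 44779 FPKM in wildtype, without overlap, and 9 of the 13 were higher in KO at an unadjusted p under 0.05. Erythroid markers summed to 25044 to 60834 FPKM in KO and 71874 to 108777 FPKM in wildtype, also without overlap, and 6 of 11 were lower. All 11 B cell markers (93.2 to 145 FPKM in KO, 295 to 331 FPKM in wildtype) and 5 of 5 tested adipocyte markers (20.4 to 53.2 against 74.3 to 209 FPKM) were lower at that p. For macrophage markers it was 3 of 9 (307 to 379 against 371 to 484 FPKM), for osteoclast markers 3 of 7 (570 to 767 against 702 to 1500 FPKM) and for endothelial markers 2 of 7 (22.5 to 25.5 against 24.0 to 41.0 FPKM), all lower and with overlapping sums. Of 13 tested chondrocyte markers, 0 were past it, with sums of 1500, 678 and 688 FPKM in KO replicates 1, 2 and 3 and 670 to 893 FPKM in wildtype. It was likewise 0 for osteoblast and osteocyte (11 tested), skeletal muscle (7) and proliferation (7) markers. Of all tested genes, 7.63% were higher and 6.07% lower at that p. In bulk tissue, fewer cells of a type and less RNA per cell cannot be told apart.

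**Figure D1:**
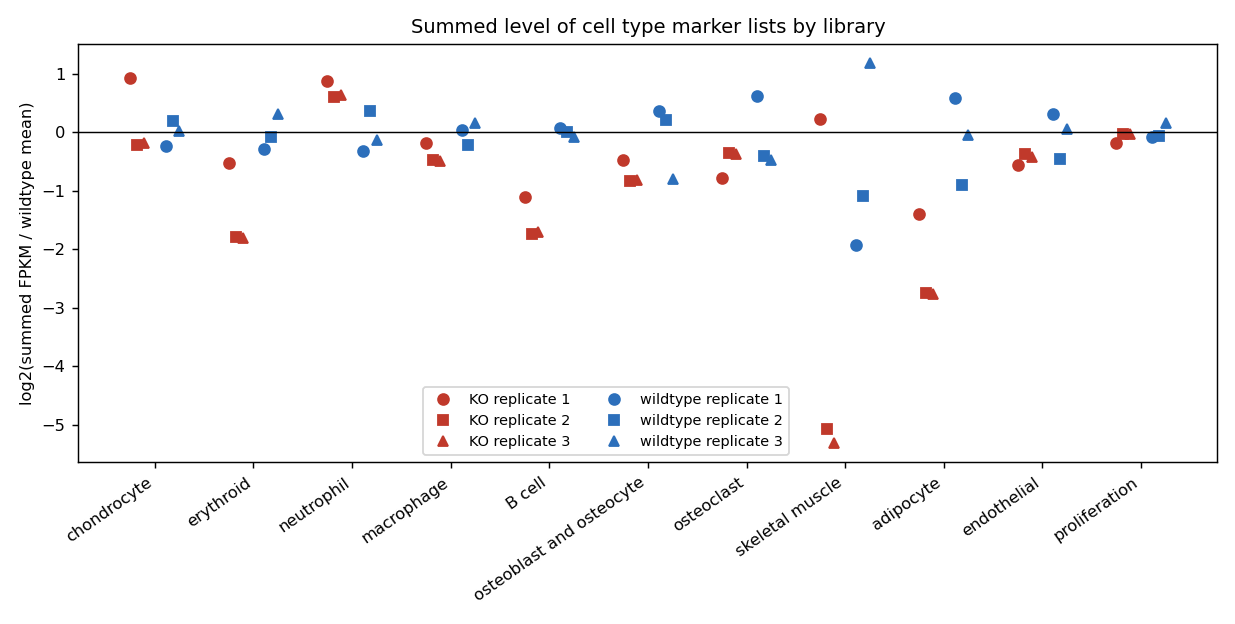
Summed FPKM of each cell type marker list in each library, on the log2 scale relative to the wildtype mean (vertical axis), for 11 lists (horizontal axis). Each point is a library. KO and wildtype libraries are apart for the erythroid, neutrophil, B cell and adipocyte lists, and KO replicate 1 stands above the other KO libraries for all lists except the osteoclast, endothelial and proliferation lists, where it stands below them.

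Differences between KO and wildtype were then tested over all genes that averaged 0.5 FPKM or more (15373 genes), and all 35 members passed this limit. None of the members reached an adjusted p under 0.05 (0 of 35, against 0.0% of all tested genes) in the quasi-likelihood F-test of edgeR, adjusted by the Benjamini-Hochberg method over all tested genes, and their lowest adjusted p was 0.166. Without KO replicate 1, 2 members passed, G6pdx and Sod3 (against 2.29% of tested genes). The count was 0 in each other fit with libraries left out, where 0.0065% of genes were called without wildtype replicate 2 or 3 and 0.0585% without KO replicates 2 and 3 together, and with no filter on low values (0.0626% of genes). DESeq2 on the same 5 samples called 6 (17.1% of members, against 5.96% of genes), the fit of the 6 libraries as labelled also called 6 (against 3.71%), and limma on log2 FPKM with either pseudocount called 0. The 6 genes were the same under both. Gstm1, G6pdx, Glrx and Gsr were higher and Gclc and Hmox1 lower, each in all 3 KO libraries. Neutrophil markers were higher and erythroid, B cell and adipocyte markers lower in these libraries, and their part in the differences was not tested.

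At an unadjusted p under 0.05, 14 of the 35 members differed (40%), against 13.7% of all tested genes. KO was higher in 6 of them (17.1%, against 7.63% of genes) and lower in 8 (22.9%, against 6.07%). Members were mostly well expressed. Of the 31 that averaged 5 FPKM or more, in a fit of such genes alone, 4 were higher (against 10.2% of such genes) and 8 lower (against 6.72%), where 17.0% of such genes differed in either direction. The higher members were G6pdx, Glrx, Gstm1, Prdx5, Gsr and Mgst1. The lower members were Hmox1, Prdx2, Txnrd2, Gclc, Cat, Srxn1, Prdx3 and Gclm. The number of lower members was 14 without KO replicate 1 (against 9.89% of genes). It was 3 without wildtype replicate 3, a fit for which the share of all genes was not computed. The median log2 difference of the members was -0.14 in that fit, against -0.13 with no library left out.

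The libraries of both groups did not overlap in 19 members (54.3%, against 25.0% of tested genes). All KO libraries lay above all wildtype libraries in 8 (against 11.3% of tested genes), and below them in 11 (against 13.7%). Besides the 14 genes above, these were Txn1 and Prdx6 (above) and Gsta4, Gstp1 and Sod1 (below). The log2 difference was below 0 in 24 members (68.6%, against 52.5% of genes), and its median was -0.13, against -0.02 over all tested genes. This median was -0.36 without KO replicate 1, -0.21 without wildtype replicate 1, -0.062 without wildtype replicate 2 and 0.02 without KO replicates 2 and 3 together.

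**Figure D2:**
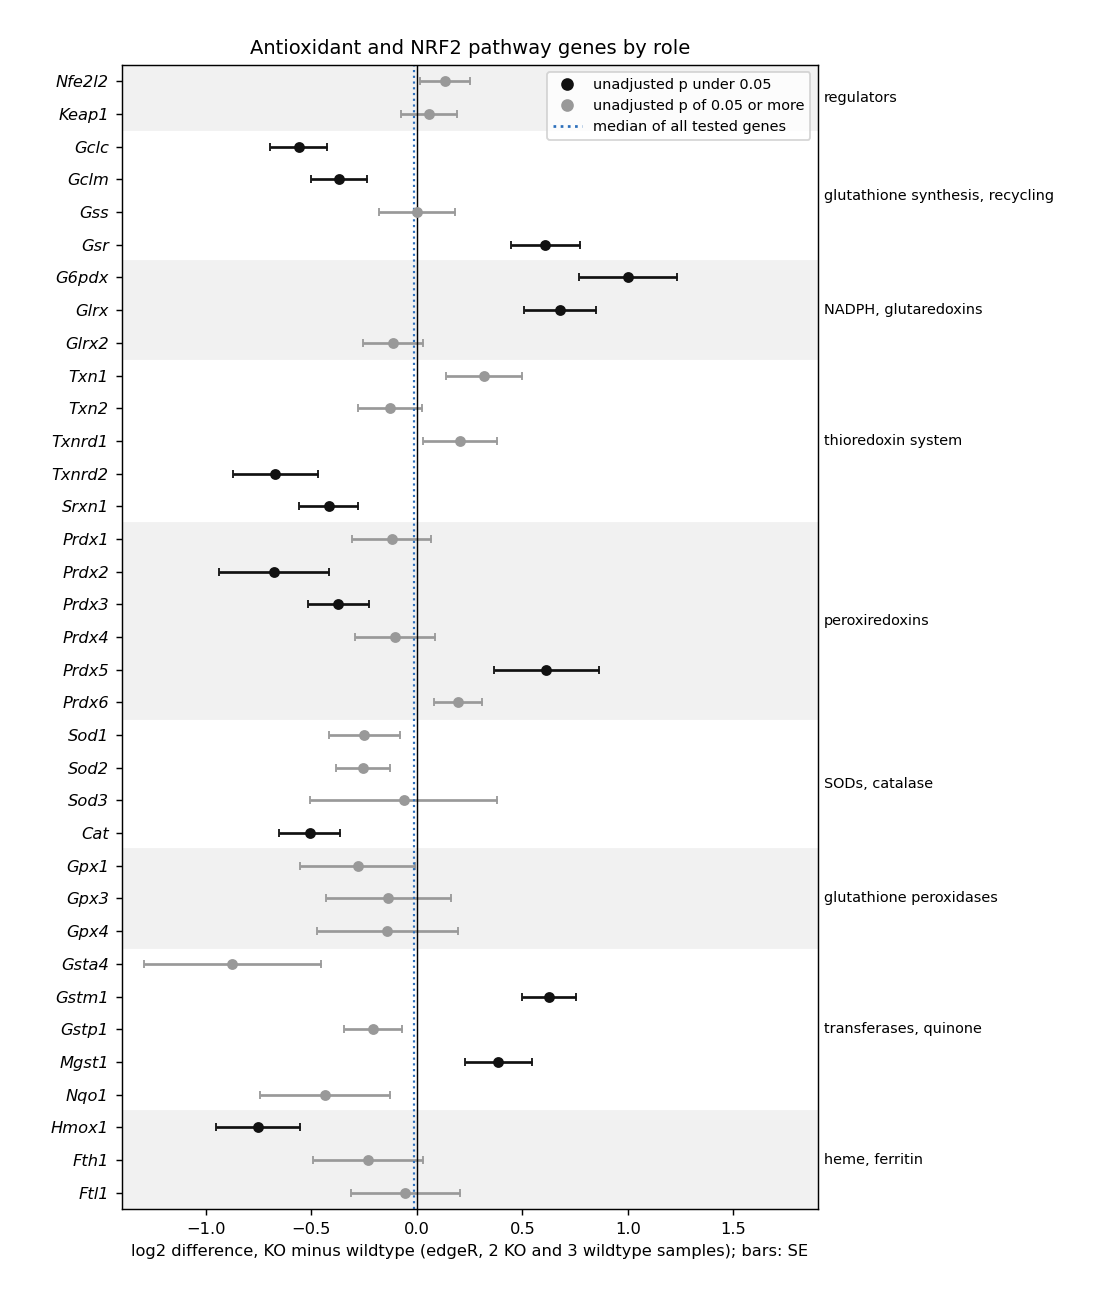
Log2 difference (KO minus wildtype, horizontal axis) of the 35 members by role (vertical axis), with bars of 1 SE, from edgeR on 2 KO and 3 wildtype samples. Black points have an unadjusted p under 0.05, and none has an adjusted p under 0.05. Gclc and Gclm lie left of 0 and Gsr, G6pdx and Glrx right of it, while Nfe2l2 and Keap1 lie close to 0.

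The regulators were examined first. Levels of the libraries are listed throughout in the order of their replicate numbers. Nfe2l2 was at 27.4, 34.6 and 33.4 FPKM in KO replicates 1, 2 and 3 and at 29.4, 27.3 and 28.2 FPKM in wildtype replicates 1, 2 and 3. KO replicate 1 lay within the wildtype range and the other KO libraries above it. Its log2 difference was 0.13 (SE 0.119, unadjusted p 0.303, adjusted p 0.726 by edgeR). Keap1, the sensor that binds NRF2, was at 9.49, 10.7 and 10.9 FPKM in KO and at 9.33, 9.40 and 10.9 FPKM in wildtype. The groups overlapped. The difference of Keap1 was 0.06 on the log2 scale (SE 0.132, adjusted p 0.921 by edgeR), and it was under 0 without wildtype replicate 1. These are transcript levels, and NRF2 is chiefly controlled through its protein.

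Genes commonly used as readouts of NRF2 mostly had log2 differences below 0 (5 of 6, against 52.5% of all tested genes). The exception was Txnrd1, at 0.20 (SE 0.176), described below. Of Nqo1, Hmox1, Gclc, Gclm, Srxn1 and Txnrd1, 4 were lower at an unadjusted p under 0.05 (against 6.07% of all tested genes). At that p 0 were higher (against 7.63%). The median log2 difference of the 6 was -0.43, against -0.02 over all tested genes. Hmox1, which breaks down heme and is also induced by heme itself, was at 44.1, 41.5 and 36.5 FPKM in KO and at 60.1, 65.4 and 88.2 FPKM in wildtype. All KO libraries lay below all wildtype libraries, at 0.583 times the wildtype mean. This was a log2 difference of -0.75 (SE 0.199, unadjusted p 0.00647, adjusted p 0.190 by edgeR). Srxn1, sulfiredoxin, restores over-oxidized peroxiredoxins. It was at 6.32, 6.41 and 6.39 FPKM in KO and at 8.69, 8.46 and 8.69 FPKM in wildtype, with little spread in either group. The difference of Srxn1 was -0.42 on the log2 scale (SE 0.140, unadjusted p 0.0202, adjusted p 0.263 by edgeR). Nqo1, a quinone reductase, was at 5.999, 3.49 and 3.63 FPKM in KO and at 5.35, 6.81 and 7.66 FPKM in wildtype. Only KO replicates 2 and 3 lay below the wildtype range, and the log2 difference was -0.44 (SE 0.308, unadjusted p 0.199). It was -0.93 without KO replicate 1 and -0.06 with KO replicate 1 as the sole KO sample. The erythroid marker sum was lower in KO without overlap, while the macrophage sums overlapped (307 to 379 FPKM in KO, 371 to 484 FPKM in wildtype). The part of either in the difference of Hmox1 was not tested.

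The glutathione genes differed by step. Gclc encodes the catalytic and Gclm the modifier subunit of glutamate-cysteine ligase, the rate-limiting enzyme of glutathione synthesis. Gclc was at 16.9, 15.7 and 16.2 FPKM in KO and at 24.0, 22.5 and 27.2 FPKM in wildtype. Gclm was at 19.8, 19.6 and 19.3 FPKM in KO and at 26.1, 22.9 and 28.2 FPKM in wildtype. For both subunits all KO libraries lay below all wildtype libraries, KO replicate 1 included. The log2 difference was -0.56 for Gclc (SE 0.134, unadjusted p 0.00387, adjusted p 0.175 by edgeR) and -0.37 for Gclm (SE 0.133, unadjusted p 0.0271, adjusted p 0.289 by edgeR). Gss, which adds the last amino acid, was at 2.05 to 2.07 FPKM in KO and 1.91 to 2.33 FPKM in wildtype, and its difference was near 0 (SE 0.179 on the log2 scale). Gsr, which returns oxidized glutathione to its reduced form at the cost of NADPH, stood on the other side. It was at 176, 231 and 225 FPKM in KO and at 131, 138 and 132 FPKM in wildtype. Its log2 difference was 0.61 (SE 0.162, unadjusted p 0.00687, adjusted p 0.193 by edgeR). The synthesis subunits were thus lower, and the recycling enzyme higher, in every KO library than in any wildtype library. Gclm overlaps the antisense gene Gm17494, which had 14.2% of its count, and Gss overlaps Acss2 on the opposite strand, which had 134%. The use of strand in counting was not stated, so these values are uncertain to that extent.

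G6pdx had the largest difference above 0 of the 35 members. It encodes glucose-6-phosphate dehydrogenase, the entry enzyme of the pentose phosphate pathway and a main source of NADPH. G6pdx (ENSMUSG00000031400, chromosome X, 74409483 to 74429194) was at 72.6, 136 and 138 FPKM in KO and at 50.2, 53.3 and 53.8 FPKM in wildtype. All KO libraries lay above wildtype, but KO replicate 1 was nearer to wildtype than to the other KO libraries. KO samples averaged 105 ± 45.6 FPKM (SD, n = 2), and wildtype samples 52.4 ± 1.92 FPKM (SD, n = 3). The log2 difference was 1.0 (SE 0.231, unadjusted p 0.00330, adjusted p 0.171 by edgeR). With the merged pair as the sole KO sample it was 1.35, and with KO replicate 1 as the sole KO sample 0.55. The neutrophil marker sum was 63880, 52625 and 53848 FPKM in the same KO libraries, above all wildtype libraries, and its part in the difference of G6pdx was not tested. Ikbkg, on the opposite strand, overlaps G6pdx and had 15.0% of its count.

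Glutaredoxins reduce disulfides with glutathione. Glrx, the cytosolic form, was at 26.4, 30.3 and 31.1 FPKM in KO and at 15.5, 20.8 and 17.5 FPKM in wildtype. The groups did not overlap, at 1.59 times the wildtype mean, and the log2 difference was 0.68 (SE 0.169, unadjusted p 0.00487, adjusted p 0.179 by edgeR). Glrx2, the mitochondrial form, was at 2.10 to 2.56 FPKM in KO and 2.37 to 2.65 FPKM in wildtype, and differed by -0.11 on the log2 scale (SE 0.143).

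**Figure D3:**
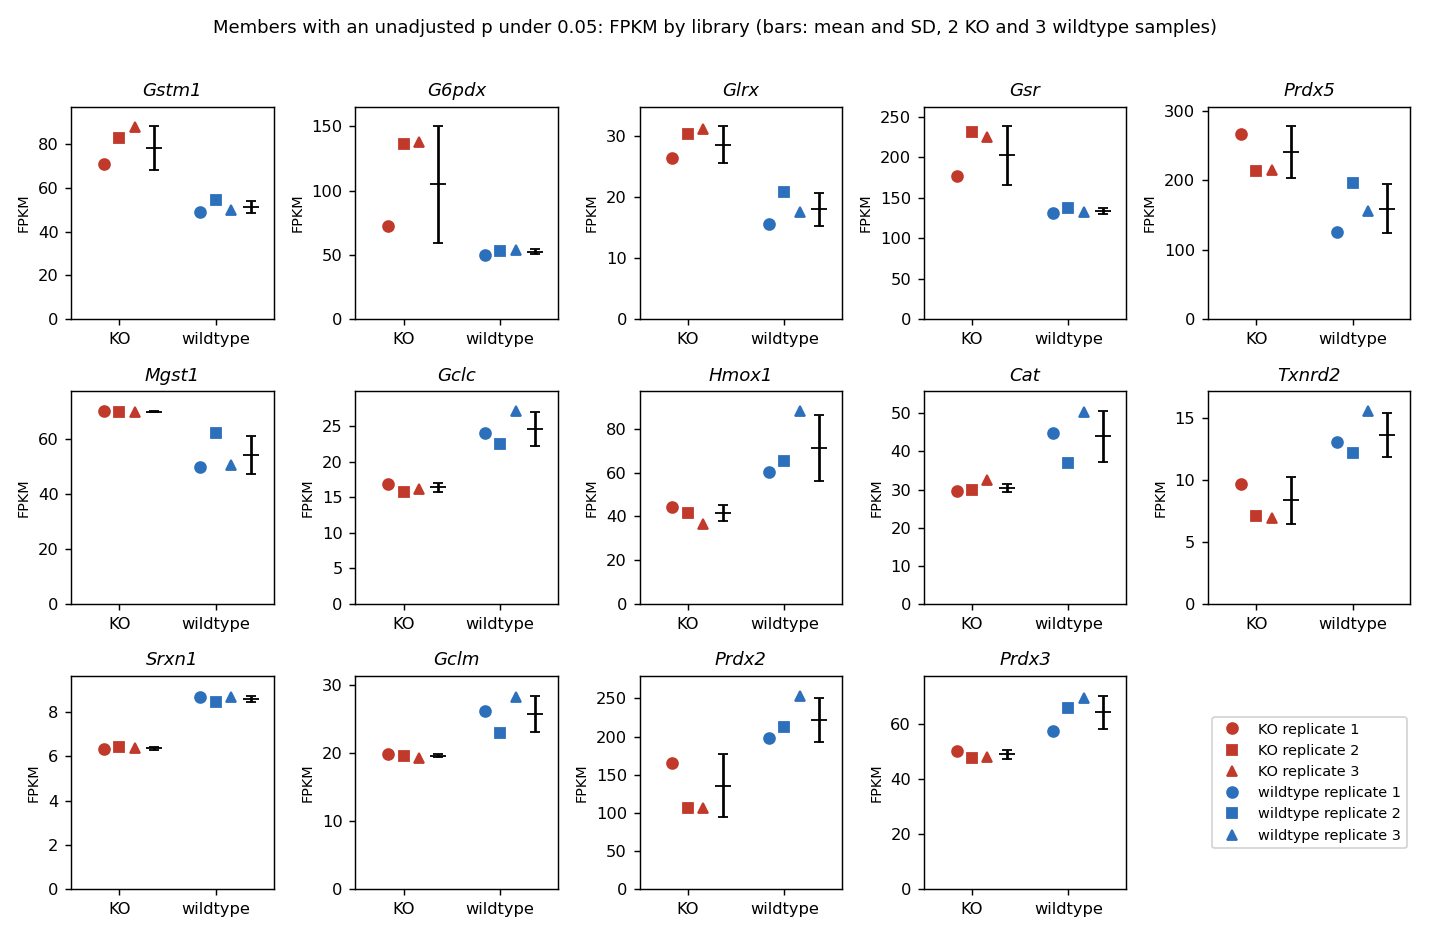
FPKM (vertical axis, from 0) in each library for the 14 members with an unadjusted p under 0.05, with mean and SD over 2 KO samples (replicates 2 and 3 averaged) and 3 wildtype samples. In each of the 14 panels the KO libraries lie all above or all below the wildtype libraries, and in 10 of the 14 KO replicate 1 is the KO library nearest to the wildtype mean.

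The thioredoxin system passes electrons from NADPH through a reductase (Txnrd1 in the cytosol, Txnrd2 in mitochondria) to thioredoxin. Txnrd2 was at 9.69, 7.08 and 6.92 FPKM in KO and at 13.01, 12.2 and 15.6 FPKM in wildtype. All KO libraries lay below wildtype, with a log2 difference of -0.67 (SE 0.202, unadjusted p 0.0122, adjusted p 0.225 by edgeR) and of -0.99 without KO replicate 1. Txnrd1 was at 8.70, 13.2 and 13.5 FPKM in KO and at 9.84, 8.49 and 10.7 FPKM in wildtype. Here KO replicate 1 was within and KO replicates 2 and 3 above the wildtype range. The log2 difference of Txnrd1 was 0.20 (SE 0.176, unadjusted p 0.286), and it was -0.07 without KO replicates 2 and 3. Txn1, cytosolic thioredoxin, was at 245 to 260 FPKM in KO and 181 to 238 FPKM in wildtype (log2 difference 0.32, SE 0.179, unadjusted p 0.117). Txn2, its mitochondrial counterpart, was at 16.9 to 17.6 FPKM in KO and 16.8 to 20.7 FPKM in wildtype (log2 difference -0.13, SE 0.151).

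Peroxiredoxins, which reduce peroxides through a reactive cysteine, did not share a direction. Prdx5 was at 268, 213 and 215 FPKM in KO and at 126, 196 and 156 FPKM in wildtype. Its KO libraries all lay above wildtype, with KO replicate 1 the highest. Its log2 difference was 0.61 (SE 0.247, unadjusted p 0.0416, adjusted p 0.339 by edgeR) and 0.38 without KO replicate 1. Prdx2, an abundant protein of red blood cells, was at 165, 106 and 106 FPKM in KO and at 199, 212 and 254 FPKM in wildtype. All its KO libraries lay below wildtype, with a log2 difference of -0.68 (SE 0.261, unadjusted p 0.0351, adjusted p 0.318 by edgeR) and of -1.10 without KO replicate 1. The erythroid sum had the same order of KO libraries, 60834 FPKM in KO replicate 1 against 25309 and 25044 FPKM in the other KO libraries, and its part in the difference of Prdx2 was not tested. Prdx3, the mitochondrial form, was at 50.1, 47.5 and 47.9 FPKM in KO and at 57.4, 65.7 and 69.3 FPKM in wildtype, without overlap (log2 difference -0.37, SE 0.145, unadjusted p 0.0362, adjusted p 0.322 by edgeR). Prdx6 was at 26.4 to 29.8 FPKM in KO and 24.5 to 24.8 FPKM in wildtype (log2 difference 0.19, SE 0.114, unadjusted p 0.131). Prdx1 and Prdx4 had log2 differences of -0.12 and -0.10, with KO replicate 1 at the level of wildtype or above it and KO replicates 2 and 3 below all wildtype libraries.

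Superoxide dismutases convert superoxide to hydrogen peroxide, which catalase removes. Cat was at 29.7, 30.0 and 32.4 FPKM in KO and at 44.8, 36.9 and 50.2 FPKM in wildtype. The KO libraries were close to each other and all below wildtype, with a log2 difference of -0.51 (SE 0.145, unadjusted p 0.00971, adjusted p 0.209 by edgeR). Catalase is abundant in red blood cells, and the part of the lower erythroid sum in the difference of Cat was not tested. Sod1, the cytosolic dismutase, was at 33.3, 25.7 and 25.7 FPKM in KO and 34.2 to 37.5 FPKM in wildtype (log2 difference -0.25, SE 0.169, unadjusted p 0.181). Sod1 differed by -0.51 without KO replicate 1 and by -0.02 with that replicate as the sole KO sample. Scaf4, on the opposite strand, overlaps Sod1 and had 29.2% of its count. Sod2, in mitochondria, was at 3.63 to 4.11 FPKM in KO and 4.08 to 4.92 FPKM in wildtype (log2 difference -0.26, SE 0.128, unadjusted p 0.0836).

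Sod3, the secreted dismutase of the extracellular matrix, showed the widest disagreement between KO libraries. It was at 9.20 FPKM in KO replicate 1, whereas KO replicates 2 and 3 had 3.06 and 2.62 FPKM, on either side of the wildtype range of 6.28 to 6.63 FPKM. On the log2 scale Sod3 differed by -0.06 (SE 0.444). The difference was -1.23 with the merged pair as the sole KO sample and 0.58 with KO replicate 1 as the sole KO sample. The chondrocyte marker sum had a like split, with 1500 FPKM in KO replicate 1 and 678 and 688 FPKM in the other KO libraries, and its part in the level of Sod3 was not tested.

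Glutathione peroxidases showed the same division of the KO group. Gpx3, the secreted form, was at 235, 123 and 125 FPKM in KO and at 218, 212 and 177 FPKM in wildtype. Gpx4, which reduces lipid peroxides in membranes, was at 156, 83.9 and 88.4 FPKM in KO and at 101, 170 and 136 FPKM in wildtype. For both, KO replicates 2 and 3 lay below every wildtype library and KO replicate 1 did not. The log2 difference was -0.14 for Gpx3 (SE 0.297) and -0.14 for Gpx4 (SE 0.333), and without KO replicate 1 it was -0.75 and -0.70. Gpx4 counts may also be divided with the pseudogene Gpx4-ps2, listed at a mean of 50.4 FPKM against 123 FPKM for Gpx4. Gpx1, the major cytosolic form, averaged 729 ± 170 FPKM (SD, n = 2) in the KO samples and 902 ± 146 FPKM (SD, n = 3) in the wildtype samples (log2 difference -0.28, SE 0.274). Its KO libraries were likewise split, at 849, 613 and 606 FPKM, and without KO replicate 1 the difference was -0.61.

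Iron storage genes were among the highest of the members. Ftl1 and Fth1, the ferritin chains, had means of 979 and 295 FPKM over the 6 libraries. Ftl1 was at 857 to 1076 FPKM in KO and 843 to 1125 FPKM in wildtype (log2 difference -0.06, SE 0.258), and KO replicate 1 as well as the merged pair lay within the wildtype range. Fth1 was at 333, 218 and 222 FPKM in KO and 309 to 363 FPKM in wildtype (log2 difference -0.23, SE 0.262, and -0.63 without KO replicate 1). The pseudogenes Ftl1-ps1 and Ftl2-ps, listed at means of 17.7 and 10.1 FPKM, could share fragments of Ftl1.

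**Figure D4:**
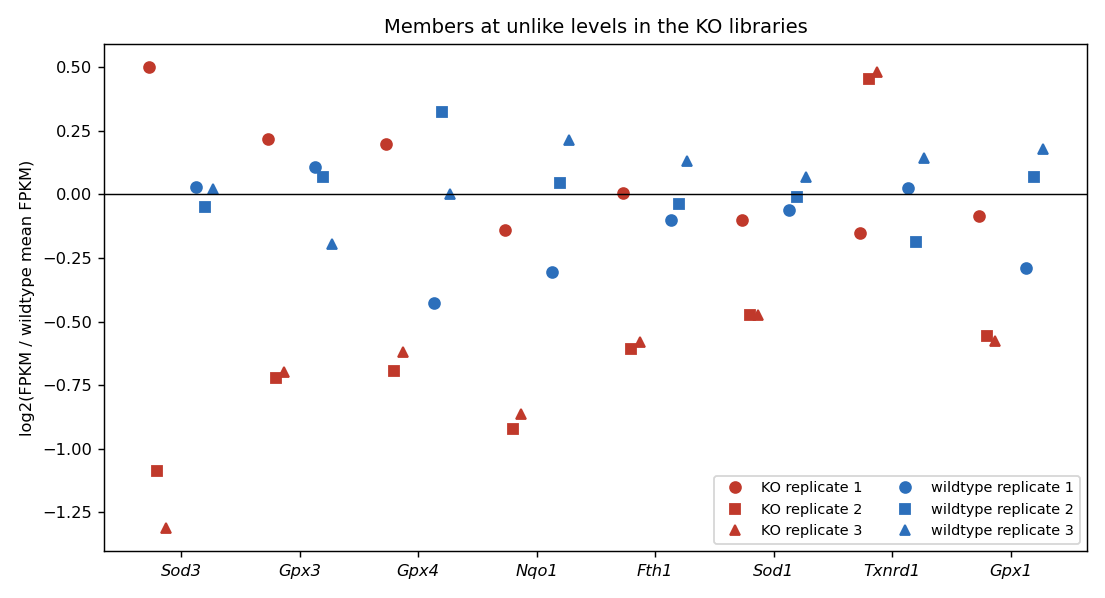
Level of 8 members in each library on the log2 scale relative to the wildtype mean FPKM (vertical axis), chosen after their values were seen to show members with unlike KO libraries. KO replicates 2 and 3 lie below all wildtype libraries for 7 genes and above them for Txnrd1, while KO replicate 1 lies within or above the wildtype range for all but Sod1.

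Glutathione transferases couple glutathione to electrophiles. Gstm1 had the lowest p of all members. Gstm1 (ENSMUSG00000058135, chromosome 3, 108012255 to 108017973) was at 71.2, 83.1 and 87.9 FPKM in KO and at 49.0, 54.4 and 50.2 FPKM in wildtype. The groups did not overlap, at 78.3 ± 10.1 FPKM (SD, n = 2) against 51.2 ± 2.85 FPKM (SD, n = 3). The log2 difference was 0.63 (SE 0.129, unadjusted p 0.00179, adjusted p 0.166 by edgeR). Mgst1, the membrane-bound transferase, was at 70.1, 69.8 and 69.6 FPKM in KO and at 49.7, 62.1 and 50.4 FPKM in wildtype, again without overlap (log2 difference 0.39, SE 0.158, unadjusted p 0.0440, adjusted p 0.348 by edgeR). Gstp1 was at 33.6 to 39.1 FPKM in KO and 42.1 to 44.2 FPKM in wildtype (log2 difference -0.21, SE 0.137), and its close copies Gstp2, Gstp3 and Gstp-ps, listed at means of 5.77, 2.62 and 3.58 FPKM, could share its fragments. Gsta4, which acts on lipid peroxidation products, was the lowest member, at 0.467 to 0.757 FPKM in KO and 0.801 to 1.55 FPKM in wildtype (log2 difference -0.88, SE 0.420, unadjusted p 0.0746).

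By compartment, 5 members listed as mitochondrial (Sod2, Prdx3, Txn2, Txnrd2 and Glrx2) all had log2 differences below 0. These ranged from -0.67 to -0.11 with a median of -0.26, where 52.5% of all tested genes were below 0. At an unadjusted p under 0.05, 2 of the 5 were lower, against 6.07% of all genes. Prdx5, which is found in mitochondria, peroxisomes and the cytosol, was not counted there, and its log2 difference was 0.61. The list does not hold every member with a mitochondrial form, so the shared direction covers these 5 genes only.

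KO replicate 1 differed from the other KO libraries over the members, as it did over all genes. It lay within the wildtype range in 11 of the 35 members (31.4%, against 40.6% of all tested genes), and KO replicates 2 and 3 both lay within it in 3 (8.57%, against 22.9%). The median deviation of the members from their mean over the wildtype samples on the log2 scale was 0.02 in KO replicate 1 and -0.36 in the merged pair, against -0.11 to 0.06 in wildtype. Other members whose log2 difference depended on KO replicate 1 were Nfe2l2 (0.23 without it), Txnrd1 (0.43), Prdx1 (-0.33), Prdx4 (-0.40), Gstp1 (-0.36) and Ftl1 (-0.29).

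Of 66 other genes of the NRF2, glutathione, thioredoxin and NADPH pathways, 57 were tested. By edgeR, 0 passed the adjusted threshold, and 10 were higher (17.5%, against 7.63% of all tested genes) and 2 lower (3.51%, against 6.07%) in KO at an unadjusted p under 0.05. DESeq2 called 4 (7.02%) and the 6 libraries as labelled 3 (5.26%), close to the 5.96% and 3.71% of all genes, and limma called 0. Their median log2 difference was -0.05. Among 7 enzymes that make NADPH or feed the pentose phosphate pathway, 3 were higher at an unadjusted p under 0.05 (against 7.63% of all tested genes). At that p 0 were lower (against 6.07%), and the median was 0.31, against -0.02 over all tested genes.

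The 5 of these genes with the smallest p were all higher in KO, without overlap of the libraries. Pgd, the enzyme after G6pdx in the pathway that also yields NADPH, was at 60.9, 93.5 and 94.3 FPKM in KO and at 45.1, 48.3 and 48.5 FPKM in wildtype (log2 difference 0.72, SE 0.191, adjusted p 0.193 by edgeR, and 0.0471 without KO replicate 1). Tkt, transketolase of the same pathway, was at 78.9, 104.7 and 103.5 FPKM in KO and at 54.9, 62.5 and 62.2 FPKM in wildtype (log2 difference 0.62, SE 0.18, adjusted p 0.214 by edgeR). As for G6pdx, KO replicate 1 lay between wildtype and the other KO libraries in both. The third NADPH gene was Idh1 (log2 difference 0.34), named after its values were seen. Mgst2, a transferase, was at 18.7, 17.6 and 17.2 FPKM in KO and at 11.7, 12.1 and 11.2 FPKM in wildtype (log2 difference 0.65, SE 0.130, adjusted p 0.166 by edgeR). Msra and Msrb1, which repair oxidized methionine, had log2 differences of 0.59 (SE 0.148) and 0.57 (SE 0.176). Of 10 further regulators of NRF2, 1 was lower (against 6.07% of all tested genes) and 0 higher (against 7.63%) at an unadjusted p under 0.05.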

How the data were processed

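Articular cartilage mRNA of KO and wildtype mice (3 libraries each, grouped by the sample titles) was sequenced as strand-specific paired reads of 150 bp. The gene knocked out is not reported here. The authors deposited 1 table with FPKM values, scaled within each library, and estimated counts, which were whole numbers but piled up at 4 (6596 values, against 4170 at 3 and 2332 at 5), so a count was not taken as a single fragment. The submitters' processing notes name cutadapt 1.9, HISAT2 2.0.4, UMI-tools, StringTie 1.3.4d, DESeq2 and edgeR. The genome build was not given in the sources used here. Gene positions equalled those of GENCODE M21 (GRCm38) for 31664 of 34607 matched genes, and for 29 of the 35 members.

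The members and lists were chosen with earlier results of these data known, and the same holds for the alternatives. Members were found by gene name. KO replicates 2 and 3 were averaged (counts rounded) for all fits unless stated. Genes averaging 0.5 FPKM or more were tested with edgeR 4.0.16 in R 4.3.3 (TMM, quasi-likelihood, two-sided) on the deposited counts, with Benjamini-Hochberg adjustment over all of them. Log2 differences are KO minus wildtype, and SEs follow from the F statistic. Alternatives used DESeq2 1.42.0, limma 3.58.1 on log2(FPKM + 1) or log2(FPKM + 0.1), other scalings and filters, counts divided by 4, a replicate block, and libraries left out. If each count were a single fragment, a count of 0 would allow up to 0.0574 CPM in the shallowest library (floor of 3 counts, counting error only). Counts were not taken as single fragments, so the true limit may be higher. Full values were given for Nfe2l2, Keap1, Nqo1, Hmox1, Gclc, Gclm, Srxn1, Txnrd1 and every member with an unadjusted p under 0.05, and for up to 5 other pathway genes with the smallest p.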

Additional observations from a re-analysis of the deposited data

How the results depend on the processing

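Of 368 values (23 named genes under 16 alternatives), 345 kept their direction and side of the adjusted threshold, 21 passed it only under the alternative and 2 were reversed. These 2 were Keap1, from -0.000706 (without wildtype replicate 1) to 0.142 with single libraries left out, and Txnrd1 without KO replicates 2 and 3 together (-0.068), and the cause was not tested. The number of genes called, 0 of 15373, was 570 with the 6 libraries as labelled, 880 with DESeq2, 21 with no filter on low values, 9 without KO replicates 2 and 3 together, and 0 to 352 with single libraries left out. Members called (0) came to 6 with the 6 libraries as labelled, 6 with DESeq2 and 0 to 2 with single libraries left out, and other pathway genes called (0) to 3, 4 and 0 to 1. Members lower at an unadjusted p under 0.05 (8) numbered 3 to 14 with single libraries left out and 3 without KO replicates 2 and 3 together. The median log2 difference of the members (-0.13) ranged from -0.36 (without KO replicate 1) to -0.062 with single libraries left out, and the cause was not tested.

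The replicate numbers did not pair the samples, as same-numbered deviations correlated at -0.145, -0.108 and -0.0581. With the replicate block on the 6 libraries as labelled, 0 genes, 0 members and 0 other pathway genes were called. In that fit, 5 members were higher and 9 lower at an unadjusted p under 0.05. The share of all tested genes at that p was not computed for the block fit. It also counts the nearly coinciding KO libraries as separate samples. Where leaving out libraries left a lone KO sample, it was assumed to vary like the others. Depth limits Gsta4 most, with a mean count of 73.3 per library, against 84466 for Ftl1.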
